A study of Mus musculus with 18 samples.

Results

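Livers of mice made diabetic with streptozotocin (STZ) were compared by RNA sequencing between 3 mice transplanted with the gut microbiota of donors given alginate oligosaccharide (A10-FMT) and 3 mice labelled as given the oligosaccharide directly (STZ+AOS). Alginate oligosaccharide (AOS) is a short sugar chain cut from the alginate of brown seaweed. All genes with 1 RPKM (reads per kilobase of transcript, corrected for how many reads mapped) or more in at least 3 of these 6 libraries were described, which were 10390 of the 19057 rows of gene symbols listed. These 6 libraries belong to a set of 18, with 3 mice in each of 6 groups.

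All mice were ICR (CD1), an outbred stock, the study used males, and livers were taken at 10 weeks of age. The A10-FMT mice received STZ, which destroys the insulin-producing beta cells, and then, daily by mouth for 2 weeks, the pooled small-intestinal content of donors given AOS at 10 mg/kg, and were kept for 3 further weeks. The STZ+AOS mice are described in the labels as treated with STZ and AOS at 10 mg/kg, and the order and length of their treatment were not given in the sources used here. Con-FMT mice received STZ and the intestinal content of control donors dosed with water, STZ mice received STZ alone, and Con mice received saline. STZ is common to A10-FMT, STZ+AOS, Con-FMT and STZ. The remaining group, AOS, received AOS without STZ. Since no STZ+AOS mouse had a transplant, the transplant procedure and the microbiota it carried cannot be told apart in A10-FMT against STZ+AOS. Mice of 1 group were taken as separate animals, and where they were not, the p-values measure only the spread between libraries.

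Loss of insulin changes the liver in several known ways. Without insulin the liver stops storing fuel, lowers fatty acid and cholesterol synthesis, raises the burning of fatty acids and releases IGFBP1, a protein that binds insulin-like growth factors. Uncontrolled diabetes also makes the liver resistant to growth hormone, which acts through its receptor and STAT5B to drive Igf1 and Igfals and, in its pulsed male form, the male pattern of liver enzymes. Glucocorticoids, fatty acids acting on PPAR alpha, cytokines acting on STAT3 and leptin acting on its receptor are further signals that shift in this state.

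The 6 libraries differed before any single gene was considered. The sum of RPKM was 675600 to 712798 in A10-FMT and 621121 to 642433 in STZ+AOS, and the 50 genes with the highest values took 42.5% to 46.0% of it in A10-FMT and 37.1% to 39.5% in STZ+AOS. Neither range overlapped (exact permutation test, two-sided, p = 0.1, the smallest that 3 against 3 mice allow). Steps between the low values of 113 genes gave relative depths of 0.948 to 0.991 in these 6, while the number of reads per library is unknown. Mice of A10-FMT were alike, with a median SD between mice of 0.107 in log2(RPKM + 1), and those of STZ+AOS were more spread, with 0.214.

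STZ+AOS mouse 3 stood apart. Its library held digestive enzyme genes of the pancreas: the summed level of 10 acinar markers was 121 RPKM there and at most 2.59 RPKM in the other 5 libraries. Igfbp1 was also highest there, at 3757 RPKM against 481 and 305 RPKM in the other STZ+AOS mice. STZ+AOS mouse 1 had high acute-phase genes, with Saa1, which codes for serum amyloid A, at 3430.5 RPKM against 199.8 and 33.6 RPKM in mice 2 and 3. Calls of named genes lost without mouse 3 are given below.

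On the first principal component of the 18 libraries, which held 57.2% of the variance, the STZ+AOS mice lay at -39.6, -40.3 and -31.1 and the A10-FMT mice at -4.28, 6.02 and -6.54. The Con mice lay at 36.5 to 41.5. The A10-FMT mice were thus between the STZ+AOS and the Con mice, in the range of the Con-FMT mice (-17.6, 13.3 and 2.70), while STZ mouse 3 at -0.12 lay far from STZ mice 1 and 2 at -45.1 and -45.8.

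**Figure D1:**
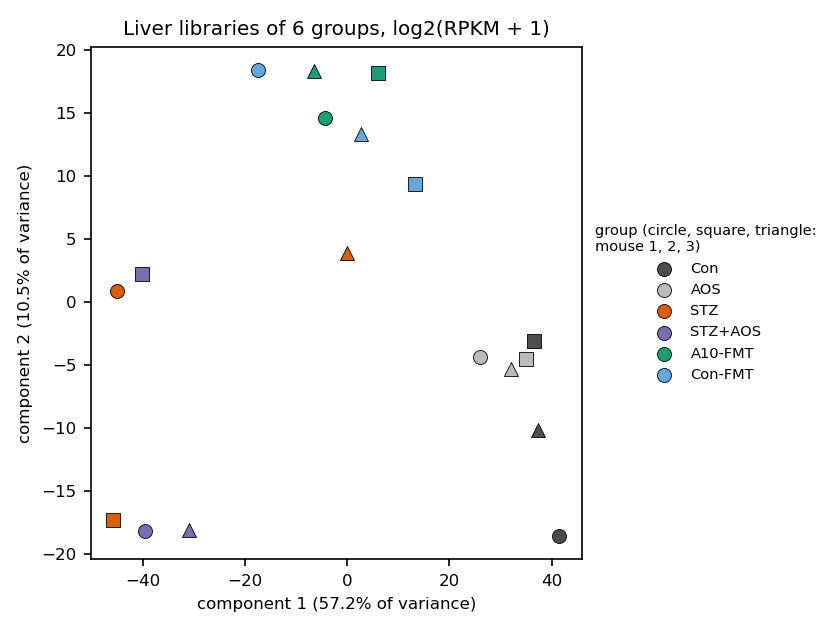
The first component (x axis, 57.2% of the variance) and the second (y axis, 10.5%) of log2(RPKM + 1) are plotted with 1 point per mouse, coloured by group and shaped by mouse number. The 3 A10-FMT mice lie near the 3 Con-FMT mice in the middle of the x axis, between the STZ+AOS mice on the left and the Con and AOS mice on the right.

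The comparison of A10-FMT with STZ+AOS asks whether the diabetic liver differs between mice given AOS-altered microbiota and mice given AOS directly. With limma fitted to log2(RPKM + 1) of all 18 libraries, 1370 of the 10390 genes (13.2%) differed at an adjusted p under 0.05. Of these, 263 were higher in A10-FMT (2.53% of all genes) and 1107 lower (10.7%), and 181 differed by at least 2-fold, 80 higher and 101 lower. The split by direction depended on the scaling, and the median difference of all genes, A10-FMT minus STZ+AOS, was -0.11 on the log2 scale. With libraries divided by their median ratio, 489 genes were higher and 512 lower, so that 48.9% of the calls were higher instead of 19.2%. With each library centred on its median, the median gene moved from -0.11 to 0.03, and 556 were higher and 409 lower.

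The number of calls rested on the libraries used to estimate the spread. It was 50 when only the 6 libraries were fitted, 586 without the group given AOS alone, and 0 when the 4 groups with STZ were fitted. In that last fit 2600 genes had an unadjusted limma p below 0.05. Without STZ+AOS mouse 3 it was 303, without STZ+AOS mouse 2 2189, and without A10-FMT mouse 1, 2 or 3 it was 256, 129 or 439. The adjusted p-values below come from the fit of 18 libraries. The median SD between mice was 0.111 in Con and 0.0934 in AOS, beside 0.190 in STZ and 0.140 in Con-FMT. With the 4 groups with STZ, the 90 called genes named below had adjusted p of 0.0611 to 0.129. The calls are thus those of a model in which all 6 groups share 1 spread, and the values of each mouse are given beside them. Without A10-FMT mouse 1, 2 or 3, 41, 29 or 44 of the 90 stayed called, and without STZ+AOS mouse 1 or 2, 59 or 76. Calls kept without STZ+AOS mouse 3 but lost without another of the 6 were those of Igfbp1, Sgk1, Cyp7b1, Sc5d, Cd36, Bcl6, Csad, Lect2 and Gldc. The same held for Pik3ca, Stat5b, Zbtb16, Alas2, Mup20, Mup21, Cyp4a12a, Insr and S100a9. Without STZ+AOS mouse 3, 43 of the 90 stayed called. Beside the calls said below to be lost without it, those of Fdps, Acly, Pmvk, Selenbp2, Abcb11, Cyp1a2, Angptl4, Msmo1, Elovl6, Thrsp, Irs2, Haao, Jak2, Cyp2c39, Sult2a1, Acot2, Pdk4, Cyp4a10, Cyp4a31, Acss2, Fasn, Mt2, Serpina3n, Lpin1, Pdpk1 and Leprot were lost as well, with adjusted p from 0.0502 for Fdps to 0.162 for Pdpk1.

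The limit of 1 RPKM also bears on the calls. Of the genes kept, 87 were over it in 1 of the 2 groups only, and 42 of these were called. Cib3, Sult1e1, S100a9 and Hbb-bs, named below, are such genes: they passed the limit only through the group in which they were higher and so had to differ, and their values are given as a description.

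The smallest p among all genes was that of Lepr, the leptin receptor (chromosome 4, from 101717404 to 101815352, GRCm38). Lepr was at 58.6, 45.4 and 122 RPKM in STZ+AOS mice 1, 2 and 3 and at 2.99, 2.44 and 4.45 RPKM in A10-FMT mice 1, 2 and 3. All 3 STZ+AOS mice were far above all 3 A10-FMT mice, and the mean was 22.9-fold higher in STZ+AOS. The difference, A10-FMT minus STZ+AOS, in log2(RPKM + 1) was -4.05 ± 0.45 (SE, limma, adjusted p = 0.00178), and without STZ+AOS mouse 3 it was -3.64 (adjusted p = 0.00543). In the other groups Lepr was at 46.3, 42.1 and 21.7 RPKM in STZ, 9.29, 1.14 and 5.15 RPKM in Con-FMT and 0.14, 0.14 and 0.17 RPKM in Con. Lepr was thus lowest in Con, higher in A10-FMT and Con-FMT, which overlapped, and highest in STZ and STZ+AOS, which also overlapped. In bulk liver, here and below, fewer cells of a type and less RNA per cell cannot be told apart.

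Another 9 genes were named among those lower in A10-FMT. Sult1e1, the oestrogen sulfotransferase, was at 86.4, 25.8 and 19.4 RPKM in STZ+AOS and 0.75, 0.06 and 0.46 RPKM in A10-FMT, below 1 RPKM in every A10-FMT mouse (difference -4.70 ± 0.70, adjusted p = 0.00912). Eif4ebp3, a repressor of cap-dependent translation, was at 213, 119 and 131 RPKM in STZ+AOS and 24.9, 34.4 and 50.2 RPKM in A10-FMT. No mouse overlapped for either gene, and Eif4ebp3 was 4.23-fold higher in STZ+AOS (adjusted p = 0.00757).

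Abcc4, an efflux pump for bile acids and other organic anions, was at 6.61, 4.14 and 4.13 RPKM in STZ+AOS and 1.31, 1.0 and 1.4 RPKM in A10-FMT (difference -1.39 ± 0.24, adjusted p = 0.0112). Id1, a target of bone morphogenetic protein signalling, was at 24.9, 8.07 and 17.9 RPKM in STZ+AOS and 4.92, 4.86 and 3.66 RPKM in A10-FMT (difference -1.59 ± 0.28, adjusted p = 0.0112). Both were lower in every A10-FMT mouse than in every STZ+AOS mouse. Acot1, Nudt4, Tab2, Cables1 and Gm41476 were the others, with differences of -1.96 ± 0.30, -1.05 ± 0.17, -1.14 ± 0.20, -1.01 ± 0.18 and -1.16 ± 0.20 and adjusted p of 0.00912 to 0.0112. Acot1 codes for a cytosolic acyl-CoA thioesterase, Nudt4 for a diphosphoinositol phosphatase and Tab2 for an adaptor of the TAK1 kinase.

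Of the 10 leading genes that were higher in A10-FMT, Slc22a7 codes for OAT2, an organic anion transporter of the hepatocyte. It was at 8.71, 7.8 and 6.72 RPKM in STZ+AOS and 40.6, 27.7 and 27.9 RPKM in A10-FMT, a 4.14-fold higher mean (difference 1.90 ± 0.34, adjusted p = 0.0112). Rgn, which codes for regucalcin, an enzyme of sugar acid metabolism, was at 148, 292 and 258 RPKM in STZ+AOS and 504, 583 and 486 RPKM in A10-FMT (adjusted p = 0.0112). Every A10-FMT mouse was above every STZ+AOS mouse for both. Hes6, a transcription factor of the Hes family, was 2.35-fold higher, Inhbc, a subunit of activin C made by hepatocytes, 2.06-fold, Hdhd3 2.57-fold and Ociad2 2.45-fold, each with an adjusted p of 0.0112. The genes with the highest ratios were low in STZ+AOS, where Cib3, which codes for a calcium-binding protein, was at 0.27, 0.14 and 0.40 RPKM against 2.64, 3.52 and 1.79 RPKM in A10-FMT, and Nrep at 0.55, 1.74 and 1.27 RPKM against 7.9, 11 and 18.5 RPKM. Igfals and Ghr, the remaining genes, are described with the growth hormone axis.

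**Figure D2:**
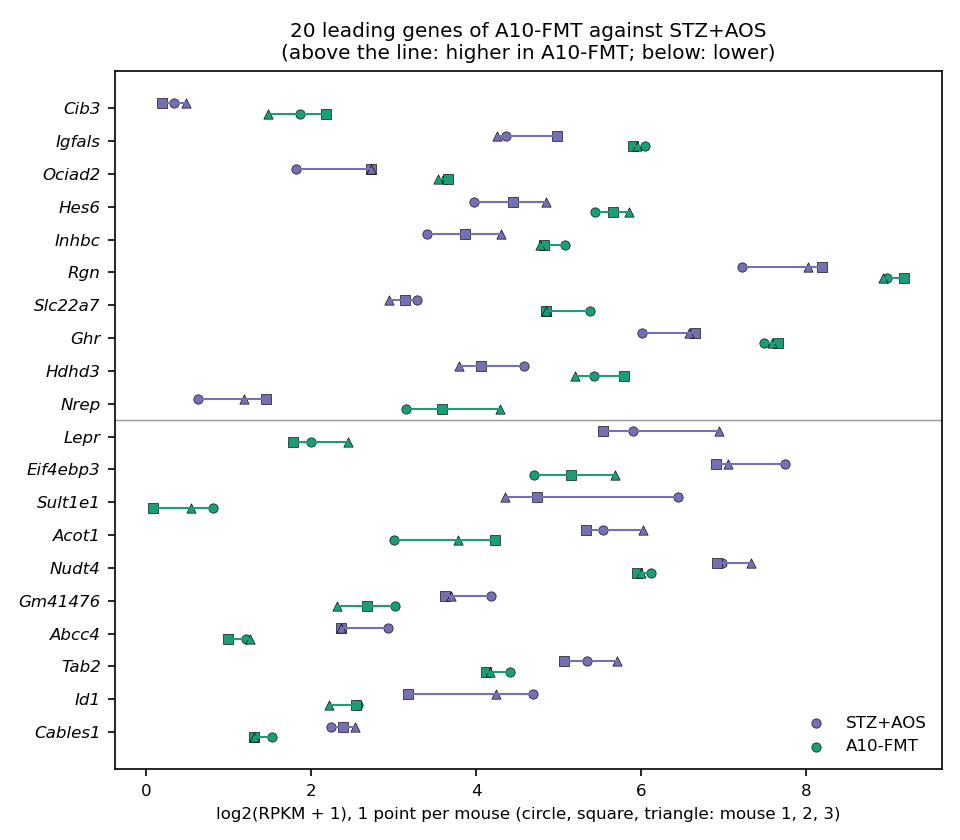
Each of the 20 leading genes has 2 lines, STZ+AOS and A10-FMT, with 1 point per mouse on a log2(RPKM + 1) axis. The groups do not overlap for any of the 20, which the choice of genes required, and Sult1e1 and Lepr have the widest gaps, at -4.70 and -4.05.

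The growth hormone and IGF axis held genes of both directions. Of its 15 genes, 3 were called higher and 4 lower in A10-FMT, against 2.53% and 10.7% of all genes, with a list median of -0.12 beside -0.11 for all genes. With median-ratio scaling 4 were higher and 2 lower, and with each library centred on its median 4 and 1. Leaving out 1 mouse gave 2 to 3 higher and 1 to 4 lower, with 1 lower without A10-FMT mouse 2 or 3. The receptor and the serum partner of IGF1 were among those higher. Ghr, the growth hormone receptor, was at 63.2, 99.3 and 94.3 RPKM in STZ+AOS and 179, 201 and 191 RPKM in A10-FMT (difference 1.17 ± 0.21, adjusted p = 0.0112). Igfals, the acid-labile subunit that keeps IGF1 in the blood, was at 19.5, 30.6 and 18.1 RPKM in STZ+AOS and 65.3, 58.6 and 60.9 RPKM in A10-FMT (difference 1.43 ± 0.24, adjusted p = 0.0112). For both genes the A10-FMT mice were close together and above every STZ+AOS mouse, and Con mice had Ghr at 169.6, 236 and 199 RPKM and Igfals at 54.3, 90.6 and 74.8 RPKM. Bcl6, a repressor of female-type genes under growth hormone, was also higher, at 2.28, 2.68 and 6.28 RPKM in STZ+AOS and 11.9, 18.2 and 7.04 RPKM in A10-FMT (adjusted p = 0.0395).

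Igf1 itself was at 98, 98 and 83.8 RPKM in STZ+AOS and 117, 116 and 121 RPKM in A10-FMT, and did not pass the test (difference 0.34 ± 0.12, adjusted p = 0.0663), although the mice did not overlap. The genes of the signalling branch that were lower were Stat5b (15.4, 14.8 and 13.1 against 10.4, 10.4 and 8.91 RPKM), Jak2 (4.41, 4.53 and 5.6 against 3.67, 3.19 and 3.47 RPKM) and Socs3, an inhibitor of cytokine signalling (9.77, 6.52 and 23.6 against 6.49, 3.56 and 3.17 RPKM). Their differences were smaller than those of Igfals and Ghr for Stat5b (-0.50 ± 0.11) and Jak2 (-0.39 ± 0.11), and the call of Socs3 was lost without STZ+AOS mouse 3 (adjusted p = 0.167).

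Igfbp1 was the member with the largest difference. It was at 481, 305 and 3757 RPKM in STZ+AOS and at 85, 35.8 and 93.6 RPKM in A10-FMT. Every STZ+AOS mouse was above every A10-FMT mouse, and mouse 3 was far above the other STZ+AOS mice. The difference was -3.62 ± 0.74 (adjusted p = 0.0137), and it was -2.52 without STZ+AOS mouse 3 (adjusted p = 0.0355). The call was lost without another of the mice, where the highest adjusted p by limma was 0.0656. Igfbp2, a second binding protein, was at 567, 1206 and 1635 RPKM and 633, 844 and 739 RPKM, and the groups overlapped.

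The upstream sequences of Igfals and Igfbp1 are shown because these genes are known to answer to growth hormone and to insulin and differed in opposite directions. Both runs are the 250 bases before a RefSeq start in GRCm38.p6, read 5′ to 3′ on the strand of the gene. Igfals had 3 windows listed, and the first that held the letters is shown, so its match was fixed by that choice. This window lies inside the gene, which spans 24865997 to 24882010 in GENCODE. Igfbp1 had 1 window listed. Capitals mark a match to TTCNNNGAA, the letters bound by STAT factors, in Igfals, and to CAAAACAA, the core of the insulin response element, in Igfbp1.
Igfals (chr17:24877594-24877843, + strand): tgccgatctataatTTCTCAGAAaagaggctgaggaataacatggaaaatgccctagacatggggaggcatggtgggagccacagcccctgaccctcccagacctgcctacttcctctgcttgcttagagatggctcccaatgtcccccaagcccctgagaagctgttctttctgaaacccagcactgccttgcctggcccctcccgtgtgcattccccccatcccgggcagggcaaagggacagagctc
Igfbp1 (chr11:7197537-7197786, + strand): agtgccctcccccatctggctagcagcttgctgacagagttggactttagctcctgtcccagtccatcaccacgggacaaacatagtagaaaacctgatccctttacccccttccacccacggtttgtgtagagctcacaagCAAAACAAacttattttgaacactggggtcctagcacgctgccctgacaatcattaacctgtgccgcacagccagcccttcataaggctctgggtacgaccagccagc
The match began 236 bases before the start in Igfals and 108 bases before it in Igfbp1. On either strand, TTCNNNGAA was found in the same window of 8.13% of 27025 genes and CAAAACAA in 2.54%. Of the 15 axis genes, 14 had a window in the table, and 3 of them (Bcl6, Igfals and Socs3) held TTCNNNGAA. Such letters are a description of the window, and binding was not measured.

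Liver genes with a sex bias in mice, which depend on the pattern of growth hormone release, were next. Of 14 male-biased genes, 5 were called higher in A10-FMT and 0 lower, with a list median of 2.47, and 13 were higher in every A10-FMT mouse than in every STZ+AOS mouse. These figures include 2 genes, both not called, that passed the limit of 1 RPKM only through A10-FMT. The count of 5, beside 2.53% of all genes, was 0 without A10-FMT mouse 2, 2 without A10-FMT mouse 1 or 3 or STZ+AOS mouse 1, 3 without STZ+AOS mouse 2 and 4 without STZ+AOS mouse 3. Over all genes 32.9% did not overlap between the groups, 7.54% with A10-FMT higher and 25.3% with it lower. Selenbp2, a selenium-binding protein, was at 8.05, 15.6 and 11.4 RPKM in STZ+AOS and 128, 411 and 262 RPKM in A10-FMT (difference 4.29 ± 0.96, adjusted p = 0.0169). Cyp7b1, the oxysterol 7 alpha-hydroxylase, was at 12.3, 18.5 and 19.4 RPKM and 93, 115 and 97.7 RPKM (difference 2.56 ± 0.55, adjusted p = 0.0149). Both remained well under Con, where Selenbp2 was at 1677, 1196 and 1493 RPKM and Cyp7b1 at 258, 229.5 and 237 RPKM.

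Mup21 and Mup20, major urinary proteins, and Cyp4a12a, a fatty acid hydroxylase, were the other 3 that passed, with differences of 5.48 ± 1.42, 4.33 ± 1.27 and 5.01 ± 1.41 (adjusted p of 0.0271, 0.0391 and 0.0342). These belong to families with near-identical copies, so reads may be split among copies and the values are uncertain. Mup3, the most abundant member, was at 27.4, 242 and 1565 RPKM in STZ+AOS and 4827, 6675 and 3853 RPKM in A10-FMT. STZ+AOS mouse 3 was the nearest to A10-FMT for these genes, and Mup3 did not pass (adjusted p = 0.0725).

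Of 19 female-biased genes, 5 were called lower in A10-FMT and 0 higher, with a list median of -1.38, while 10.7% of all genes were called lower. The count was 1 without STZ+AOS mouse 3 or A10-FMT mouse 2 or 3, 2 without STZ+AOS mouse 1 or 2 and 3 without A10-FMT mouse 1. Beside Sult1e1 the genes called were Sult2a1, Cyp17a1, Fmo2 and Cyp2c39. Sult1e1, which is part of the count and the median, passed the limit of 1 RPKM only through STZ+AOS. Cyp17a1, a steroid hydroxylase, was at 119, 129 and 53 RPKM in STZ+AOS and 30.0, 5.37 and 10.0 RPKM in A10-FMT (difference -2.86 ± 0.79, adjusted p = 0.032). Fmo2, a flavin monooxygenase, was at 29.1, 16.6 and 24.6 RPKM and 5.79, 4.28 and 8.42 RPKM (difference -1.78 ± 0.50, adjusted p = 0.0336). The mice did not overlap for either, and both calls were lost without STZ+AOS mouse 3 (adjusted p of 0.056 and 0.0935). Prlr, the prolactin receptor (31.2, 35.8 and 18 against 49.8, 30.9 and 41.4 RPKM), and Atp6v0d2, a proton pump subunit (1.26, 3.08 and 0.89 against 3.85, 2.33 and 2.87 RPKM), overlapped between the groups.

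**Figure D3:**
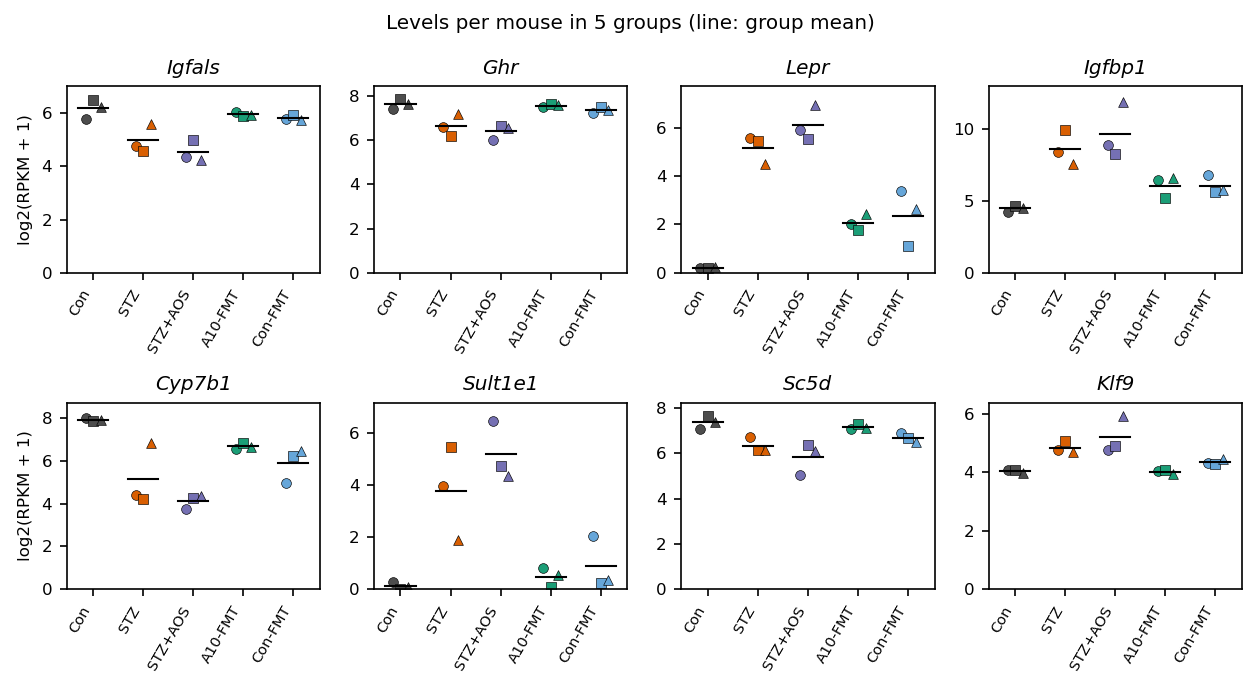
Levels of 8 genes are plotted as log2(RPKM + 1) with 1 point per mouse in Con, STZ, STZ+AOS, A10-FMT and Con-FMT, and a line at each group mean. No A10-FMT mouse overlaps an STZ+AOS mouse in any panel, with Igfals, Ghr, Cyp7b1 and Sc5d higher in A10-FMT and Lepr, Igfbp1, Sult1e1 and Klf9 lower. For Igfals, Ghr, Lepr and Sult1e1 the choice of genes required this, and the others were named for a small p in their lists. Sult1e1 also passed the limit of 1 RPKM only through STZ+AOS. Over all genes 32.9% did not overlap.

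Cholesterol synthesis genes formed the list with the most members called higher. Of 25 genes, 12 were called higher and 0 lower, 21 were higher in every A10-FMT mouse than in every STZ+AOS mouse, and the list median was 1.13. Over all genes 2.53% were called higher, and 7.54% were higher in every A10-FMT mouse than in every STZ+AOS mouse. Sc5d, a desaturase late in cholesterol synthesis, was at 31.8, 81.9 and 67.7 RPKM in STZ+AOS and 135, 155 and 138 RPKM in A10-FMT (difference 1.33 ± 0.26, adjusted p = 0.0123). Pmvk, phosphomevalonate kinase, was at 15.3, 22.4 and 20.8 RPKM and 38.7, 49.5 and 59.2 RPKM (difference 1.29 ± 0.30, adjusted p = 0.0197). STZ+AOS mouse 1 was the lowest of the 6 for both genes, and no STZ+AOS mouse reached an A10-FMT mouse.

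Msmo1, the sterol C4-methyl oxidase and the most abundant member, was at 52.9, 178 and 149.9 RPKM in STZ+AOS and 286, 344 and 369 RPKM in A10-FMT (difference 1.55 ± 0.47, adjusted p = 0.0417). The largest difference was that of Fdps, farnesyl diphosphate synthase, at 48.7, 119 and 154 RPKM against 253, 312 and 334 RPKM (1.62 ± 0.46, adjusted p = 0.036). Srebf2, the transcription factor of the pathway, was at 12, 17.5 and 14.9 RPKM against 16.2, 15.5 and 16.5 RPKM, overlapped between the groups and did not pass the test (adjusted p = 0.732). The count of 12 was 16 with median-ratio scaling, 4 with the replicate number as a block, 2 without STZ+AOS mouse 1 or mouse 3, 20 without STZ+AOS mouse 2, and 2, 0 and 1 without A10-FMT mouse 1, 2 and 3. The list median was 0.73 or more under each of the 19 alternatives run for it, and the count was 0 with only the 6 libraries or the 4 groups with STZ.

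The windows before a RefSeq start of Sc5d and Msmo1 are shown because 12 genes of this pathway were higher together. Capitals mark CCAAT or its reverse complement ATTGG, the letters bound by NF-Y.
Sc5d (chr9:42264301-42264550, - strand): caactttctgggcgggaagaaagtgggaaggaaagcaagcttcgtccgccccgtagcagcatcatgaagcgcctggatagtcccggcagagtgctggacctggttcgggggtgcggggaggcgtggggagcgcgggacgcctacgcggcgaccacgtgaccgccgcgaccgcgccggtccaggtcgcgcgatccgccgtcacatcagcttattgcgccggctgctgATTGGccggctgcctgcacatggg
Msmo1 (chr8:64733579-64733828, - strand): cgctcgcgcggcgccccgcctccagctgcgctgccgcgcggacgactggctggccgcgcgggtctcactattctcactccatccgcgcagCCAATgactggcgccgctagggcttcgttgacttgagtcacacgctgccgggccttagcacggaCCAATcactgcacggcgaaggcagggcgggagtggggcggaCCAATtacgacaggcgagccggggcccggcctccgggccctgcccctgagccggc
CCAAT was found once in the Sc5d window, 24 bases before the start, and 3 times in the Msmo1 window, 160, 96 and 55 bases before it. Most of the Msmo1 window, with all 3 matches, lies inside the gene, which spans 64718139 to 64733792 in GENCODE. Of the 25 cholesterol genes, 17 had a window in the table, and 16 of these (94.1%) held CCAAT on either strand, against 37.5% of all genes with a window and 40.7% of those analysed. In the other lists of the text the share ran from 11.1% for bile acid synthesis to 71.4% for PPAR alpha targets, and it was 70.8% for amino acid breakdown, 63.6% for the glucocorticoid response and 60% for p53 targets, lists whose calls were all or mostly lower. TCACNCCAC, a form of the sterol response element, was found in 1 of the 17 (Hmgcs1) and in 1.22% of all genes.

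**Figure D4:**
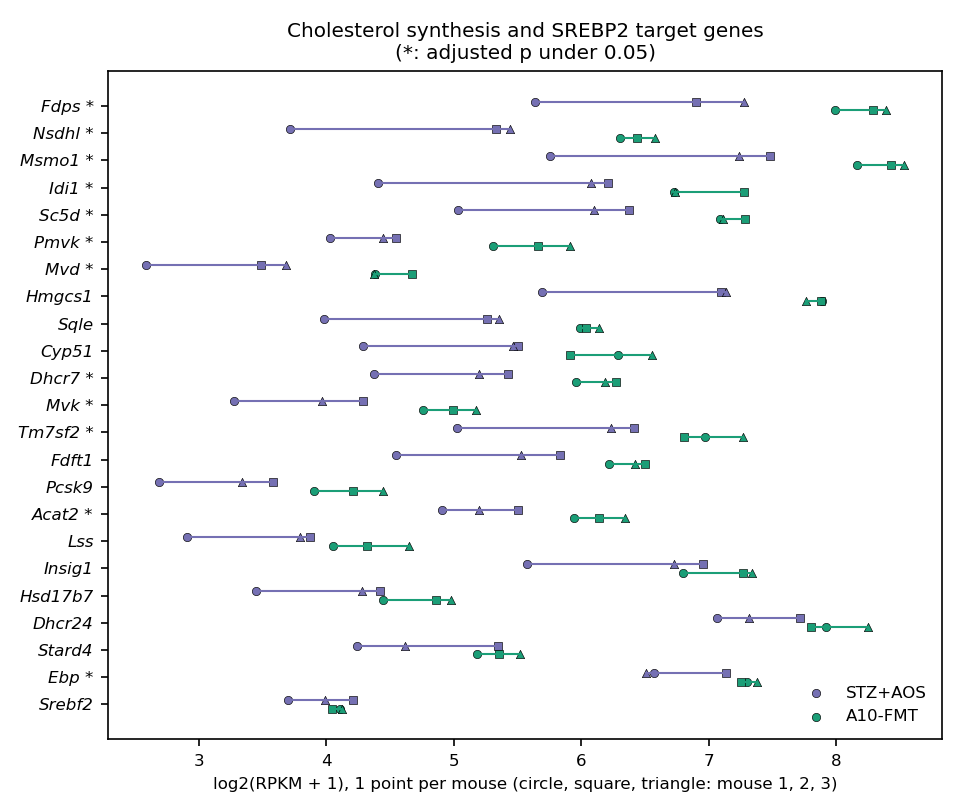
Each of 23 of the 25 cholesterol synthesis and SREBP2 target genes has 1 line for STZ+AOS and 1 for A10-FMT, with 1 point per mouse on a log2(RPKM + 1) axis, ordered by difference. The A10-FMT mean is above the STZ+AOS mean for all 23 genes plotted, from a difference of 0.12 for Srebf2 to 1.62 for Fdps.

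Fatty acid synthesis genes were higher in part. Of 21, 5 were called higher and 0 lower, with a list median of 0.54, beside 2.53% of all genes called higher. Acly, the enzyme that makes cytosolic acetyl-CoA from citrate, was at 29.3, 37.8 and 33.2 RPKM in STZ+AOS and 62.9, 58.9 and 64.2 RPKM in A10-FMT (difference 0.88 ± 0.20, adjusted p = 0.0172). Elovl6, a fatty acid elongase, was at 10.6, 11.3 and 8.37 RPKM and 16.3, 18.9 and 22.5 RPKM (difference 0.87 ± 0.22, adjusted p = 0.0241). No mouse overlapped for either. The other 3 were Acss2, Fasn and Thrsp, of which Thrsp, an activator of lipogenesis, had the largest difference (69.9, 81.7 and 32.4 against 186, 416 and 257 RPKM, 2.23 ± 0.57, adjusted p = 0.0262). Srebf1, the insulin-dependent transcription factor of the pathway, was at 22.7, 26.9 and 38.7 RPKM and 43, 44.2 and 39.3 RPKM and did not pass (adjusted p = 0.294), nor did Acacb (-0.43 ± 0.15) and Gpam (-0.28 ± 0.18), whose means were lower in A10-FMT. The count of 5 was 0 without STZ+AOS mouse 3 and 0 to 1 without any A10-FMT mouse.

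PPAR alpha is the receptor through which fatty acids induce their own breakdown. Of 21 of its targets, 9 were called lower and 0 higher, beside 10.7% of all genes called lower, with a list median of -0.40. Cyp4a14, a fatty acid omega-hydroxylase, was at 826, 852 and 1535 RPKM in STZ+AOS and 143, 102 and 141 RPKM in A10-FMT (difference -3.00 ± 0.68, adjusted p = 0.0172). Vnn1, a pantetheinase, was at 4.88, 7.94 and 3.25 RPKM and 1.86, 1.14 and 0.81 RPKM (difference -1.44 ± 0.26, adjusted p = 0.0112), and Cd36, a fatty acid translocase, at 51, 29.9 and 13.3 RPKM and 6.65, 10.2 and 7.21 RPKM (adjusted p = 0.0161). Each was lower in all A10-FMT mice. The call of Cyp4a14 was lost without STZ+AOS mouse 3 (adjusted p = 0.0613), and the list count was then 3, as it was without A10-FMT mouse 1 or 2. The other members called were Acot1, Acot2, Angptl4, Cyp4a10, Cyp4a31 and Pdk4, and the Cyp4a genes have near-identical copies.

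Other genes of fatty acid use gave few calls. Fabp1, the liver fatty acid-binding protein and the most abundant target, was at 811, 4064 and 2259 RPKM in STZ+AOS and 5052, 6768 and 4566 RPKM in A10-FMT, without overlap, and did not pass (difference 1.46 ± 0.48, adjusted p = 0.054). Of 26 genes of fatty acid oxidation, 0 were called higher and 1 lower, and of 5 ketogenesis genes 0 were called by limma, with 1 at an unadjusted p under 0.05. Among 13 genes of lipid droplets and lipolysis, 1 was called higher and 3 lower: Fitm1, a lipid droplet protein (3.83, 10.2 and 6.66 against 12.6, 26.5 and 12.1 RPKM, adjusted p = 0.0419), was higher, and Pnpla2, the lipase that starts triglyceride breakdown (70.3, 81 and 114 against 41.1, 37.3 and 48.9 RPKM, adjusted p = 0.0266), and Dgat1, an enzyme of triglyceride synthesis (-0.52 ± 0.14, adjusted p = 0.0293), were among those lower. These 3 calls were lost without STZ+AOS mouse 3 (adjusted p of 0.0999, 0.0984 and 0.0613). With median-ratio scaling 3 of the 13 genes were called higher and 3 lower. Over all genes 2.53% were called higher and 10.7% lower.

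Glucocorticoids raise glucose output by the liver. Of 14 glucocorticoid response genes, 6 were called lower and 0 higher, beside 10.7% of all genes called lower, with a list median of -1.13. The count was 3 without STZ+AOS mouse 3 or A10-FMT mouse 1, 1 without A10-FMT mouse 2, and 4 to 8 without any of the other 3 mice. Klf9, a transcription factor induced by glucocorticoids, was at 25.9, 28.8 and 59.5 RPKM in STZ+AOS and 15.5, 15.9 and 14.3 RPKM in A10-FMT (difference -1.17 ± 0.22, adjusted p = 0.0114). Sgk1, a kinase of salt transport, was at 24.9, 23.6 and 55 RPKM and 10.6, 7.24 and 12.1 RPKM (difference -1.61 ± 0.31, adjusted p = 0.0114). With any 1 of the 6 mice left out, the highest adjusted p by limma was 0.0472 for Klf9 and 0.0538 for Sgk1. In both, STZ+AOS mouse 3 was the highest of the 6, and without it the differences were -0.80 and -1.23 (adjusted p of 0.027 and 0.0356). The others called were Zbtb16, Fkbp5, Mt2 and Angptl4, and the call of Fkbp5, a chaperone of the glucocorticoid receptor, was lost without that mouse (adjusted p = 0.141). Tsc22d3, a further target, was at 30.9, 34 and 39.2 RPKM and 43.8, 37.6 and 60.6 RPKM, Hsd11b1, which regenerates active glucocorticoid, at 578, 699 and 567 RPKM and 658, 576 and 635 RPKM, and Mt1, metallothionein 1, at 4384, 2081 and 2884 RPKM and 795, 288 and 1057 RPKM. Tsc22d3 and Hsd11b1 overlapped between the groups, and the 3 genes had adjusted p of 0.336, 0.937 and 0.0804.

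Of 17 p53 targets, 10 were called lower and 0 higher, beside 10.7% of all genes called lower, with a list median of -0.60. They include 1 gene that passed the limit of 1 RPKM only through STZ+AOS. Mdm2, which degrades p53, was at 16.5, 16.4 and 23.8 RPKM in STZ+AOS and 12.1, 12.2 and 11.7 RPKM in A10-FMT (difference -0.60 ± 0.12, adjusted p = 0.012). Zmat3, an RNA-binding target, was at 1.84, 1.74 and 2.39 RPKM and 1.07, 0.98 and 1.24 RPKM (difference -0.51 ± 0.09, adjusted p = 0.0112). These were shifts of under 2-fold with no overlap between mice. Cdkn1a, the cell cycle inhibitor p21, was at 28.3, 10.4 and 92.5 RPKM and 6.55, 4.49 and 5.23 RPKM, and its call (adjusted p = 0.0218) was lost without STZ+AOS mouse 3 (adjusted p = 0.0688). The list count was 8 with median-ratio scaling, 3 without STZ+AOS mouse 3, and 0 with both changes, and it was 3, 2 and 5 without A10-FMT mouse 1, 2 and 3.

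Bax and Bcl2l1 are a promoter and an inhibitor of cell death. Bax was at 34.3, 33.7 and 51.5 RPKM in STZ+AOS and 33.1, 26.8 and 32.3 RPKM in A10-FMT and did not pass (adjusted p = 0.143). Bcl2l1 was at 20.9, 15.3 and 40.5 RPKM and 12.9, 12.6 and 10.9 RPKM, lower in A10-FMT (difference -0.91 ± 0.25, adjusted p = 0.0299), and its call was lost without STZ+AOS mouse 3 (adjusted p = 0.0913).

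Of 22 genes of insulin signalling and insulin-dependent transcription, 6 were called lower and 0 higher, beside 10.7% of all genes called lower, and the list median was -0.37. The 6 were Igfbp1, Lpin1, Irs2, Insr, Pdpk1 and Pik3ca. The count was 2 with median-ratio scaling, 3 without STZ+AOS mouse 3, and 2, 0 and 2 without A10-FMT mouse 1, 2 and 3. Pik3ca, the catalytic subunit of PI3 kinase, was at 6.02, 6.18 and 7.06 RPKM in STZ+AOS and 4.72, 4.2 and 4.85 RPKM in A10-FMT (difference -0.41 ± 0.08, adjusted p = 0.0114), a small shift without overlap. Irs2, an insulin receptor substrate, was at 7.31, 9.23 and 35.5 RPKM and 5.5, 3.31 and 5.06 RPKM (adjusted p = 0.0387), with STZ+AOS mouse 3 far above the other 5 mice. Pik3r1, the regulatory subunit, had a higher mean in A10-FMT (6.46, 5.98 and 5.42 against 8.99, 7.74 and 7.45 RPKM, adjusted p = 0.0955).

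Of 9 gluconeogenesis genes, 2 were called lower and 0 higher, beside 10.7% of all genes called lower, and the list median was -0.41. The same counts were found with median-ratio scaling. The enzymes that open and close the pathway were not among the called genes. Pck1, the entry enzyme of gluconeogenesis, was at 1869.8, 2526 and 1861 RPKM in STZ+AOS and 1593, 1354 and 1743 RPKM in A10-FMT (adjusted p = 0.291), while Con mice had 287, 342 and 302 RPKM. G6pc, which releases free glucose, was at 201, 163 and 312 RPKM and 321, 189 and 267 RPKM (adjusted p = 0.627).

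Of the 6 genes around the leptin receptor and STAT3, 5 were called lower, and Cish, a STAT5 target, was at 6.95, 5.38 and 4.36 RPKM and 6.57, 7.54 and 6.55 RPKM (adjusted p = 0.579). The 5 were Lepr, Leprot, Stat3, Jak2 and Socs3. The count was 2 with median-ratio scaling and without STZ+AOS mouse 3 or any A10-FMT mouse, and 3 without STZ+AOS mouse 1. Stat3, the transcription factor of cytokine and leptin signals, was at 53.2, 39.4 and 49.4 RPKM in STZ+AOS and 28.8, 22.1 and 25.9 RPKM in A10-FMT, without overlap (difference -0.86 ± 0.15, adjusted p = 0.0112). Among 26 acute-phase genes, 3 were called lower (11.5%, close to the 10.7% of all genes) and 0 higher, the median was -0.64, and 1 was called with median-ratio scaling. The 3 were Stat3 and Socs3, which are signalling genes, and Serpina3n, a secreted protease inhibitor. Hamp, which codes for hepcidin and is the most abundant of the list, was at 14508, 6974 and 4373 RPKM and 4765, 5321 and 7861 RPKM, and Saa1, Saa2, Orm2 and Lcn2 were each highest in STZ+AOS mouse 1 and did not pass (adjusted p of 0.19, 0.132, 0.201 and 0.145). Cd14, a receptor for bacterial endotoxin, was at 28.1, 6.42 and 16.4 RPKM and 3.81, 2.49 and 2.75 RPKM (adjusted p = 0.0332), and its call was lost without STZ+AOS mouse 3 (adjusted p = 0.0956).

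Bile acid synthesis held 2 called genes of 14, both higher: Cyp7b1 and Hsd3b7, a dehydrogenase of the sterol ring (120.2, 167 and 149.5 against 256, 227 and 177 RPKM, adjusted p = 0.0457, and 0.0966 without STZ+AOS mouse 3). Of 16 transporters of bile acids and anions, Slc22a7 was called higher and 3 lower, including Abcb11, the bile salt export pump (120.0, 131 and 105 against 97.6, 79.8 and 77.8 RPKM, adjusted p = 0.0364). With median-ratio scaling 2 of the transporters were called higher and 1 lower. Slc10a1, the main uptake carrier, was at 484, 729.5 and 369 RPKM and 539.9, 553 and 535 RPKM and overlapped. Of 12 pericentral genes, which are expressed around the central vein, Rgn, Lect2 and Cyp1a2 were called higher and 0 lower. Beside these lists of synthesis, transport and pericentral genes, 2.53% of all genes were called higher and 10.7% lower. Cyp1a2, a cytochrome that handles caffeine, was at 241, 441 and 358 RPKM in STZ+AOS and 728, 772 and 605 RPKM in A10-FMT (difference 1.05 ± 0.25, adjusted p = 0.0211), and Lect2, a secreted hepatokine, at 37.3, 79.8 and 47.3 RPKM and 135, 100.3 and 104 RPKM (adjusted p = 0.0137).

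Of 32 genes of amino acid breakdown, 2 were called higher and 5 lower, beside 2.53% and 10.7% of all genes. With median-ratio scaling 2 were higher and 3 lower. Csad, the enzyme that makes the taurine precursor hypotaurine, was at 5.26, 5.49 and 56 RPKM in STZ+AOS and 57.9, 61.1 and 48.9 RPKM in A10-FMT. STZ+AOS mice 1 and 2 were far below the A10-FMT mice and mouse 3 was among them, so the groups overlapped although the difference passed (2.10 ± 0.60, adjusted p = 0.0362), and without mouse 3 it was 3.15 (adjusted p = 0.00093). With other single mice left out, the adjusted p of Csad by limma rose to as much as 0.112. Haao, an enzyme of tryptophan breakdown, was higher (241, 304 and 175 against 363, 362 and 339.8 RPKM, adjusted p = 0.0338), and Gldc, the glycine decarboxylase (94.9, 87.2 and 60.7 against 53.5, 40.6 and 39.9 RPKM, adjusted p = 0.02), was lower.

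Of 20 antioxidant genes, 3 were called lower (15%, beside 10.7% of all genes), among them Txnrd1, thioredoxin reductase (68.2, 51.3 and 94.7 against 43.1, 35.5 and 43.3 RPKM, adjusted p = 0.0161, and 0.0506 without STZ+AOS mouse 3). Cat, catalase, was at 756, 1157 and 948 RPKM in STZ+AOS and 1295, 1416 and 1305 RPKM in A10-FMT and did not pass (adjusted p = 0.0864). The superoxide dismutases Sod1 (0.17 ± 0.15), Sod2 (-0.02 ± 0.15) and Sod3 (-0.02 ± 0.24) and the transaminase gene Gpt (-0.05 ± 0.24) overlapped between the groups, with adjusted p of 0.455 to 0.969. Leaving out 1 mouse gave 0 to 5 called lower among the antioxidant genes, 0 to 7 among those of amino acid breakdown, 0 to 3 among those of lipid droplets and 1 to 5 among acute-phase genes, and 0 to 5 called higher in bile acid synthesis and 1 to 3 among pericentral genes. Without A10-FMT mouse 2 the count was 0 for antioxidant genes, amino acid breakdown, lipid droplets and bile acid synthesis.

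Another 7 lists had 0 genes called by limma. Their counts at an unadjusted p under 0.05 were 2 of 80 for cytosolic ribosomal proteins, 4 of 78 for mitochondrial ribosomal proteins, 5 of 34 for the proteasome, 0 of 29 for interferon-stimulated genes, 2 of 15 for glucose uptake and glycolysis, 1 of 15 for heat shock and chaperones and 0 of 6 for MHC class II. With median-ratio scaling 4 mitochondrial ribosomal protein genes and 1 proteasome gene were called higher. Genes higher and lower in A10-FMT without overlap between mice were, in the order above, 0 and 31, 5 and 1, 0 and 10, 2 and 2, 0 and 2, 6 and 0, and 0 and 0. Over all genes the shares were 7.54% and 25.3%. Of 53 translation initiation genes, 8 were called lower (15.1%, beside 10.7% of all genes), and 3 with median-ratio scaling. Of 78 genes of oxidative phosphorylation 1 was called, and it was lower, while with median-ratio scaling 3 were higher and 1 lower.

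**Figure D5:**
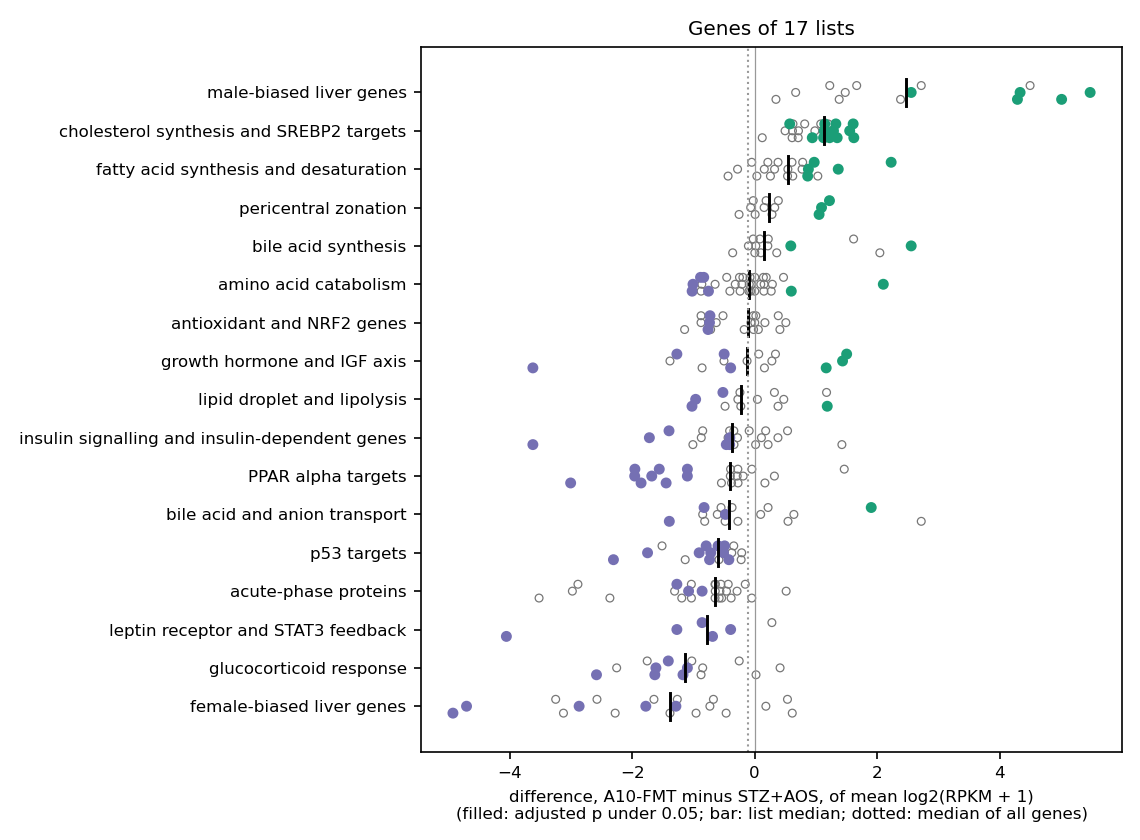
Each point is a gene of 1 of 17 lists, placed on the x axis by the difference of mean log2(RPKM + 1), A10-FMT minus STZ+AOS, and filled where the adjusted p was under 0.05. Bars mark the list medians, which run from -1.38 for female-biased genes to 2.47 for male-biased genes, and the dotted line marks the median of all genes at -0.11.

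The cell types in the samples were followed by marker genes. The summed level of 8 hepatocyte markers was 46465 to 52961 RPKM in A10-FMT and 40604 to 44419 RPKM in STZ+AOS. Of 13 macrophage markers 1 was called lower (sums of 111 to 294 against 238 to 337 RPKM), beside 10.7% of all genes. Among 9 markers of sinusoidal endothelium and 11 of stellate cells 0 were called by limma, with 1 and 2 at an unadjusted p under 0.05. The stellate markers summed to 135 to 149 RPKM in A10-FMT and 158 to 191 RPKM in STZ+AOS, without overlap, and the endothelial markers to 49.96 to 85.3 RPKM and 76.4 to 100.5 RPKM. Neutrophil markers summed to 1.73 to 4.23 RPKM in A10-FMT and 6.51 to 21.1 RPKM in STZ+AOS, and S100a9 was lower (10.2, 2.5 and 3.27 against 0.36, 0.55 and 0.54 RPKM, adjusted p = 0.0189). Only 2 of the 7 neutrophil markers were kept. S100a9 passed the limit of 1 RPKM only through STZ+AOS and so had to differ. Markers of T cells, B cells, pancreatic acinar cells and adipocytes had 0 genes over the limit, and Lep and Retn of the adipocyte list were at 0 in all 6 libraries.

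Of 6 erythroid markers, 2 of which passed the limit only through A10-FMT, 2 were called higher, beside 2.53% of all genes. The erythroid sums were 1854 to 3553 RPKM in A10-FMT against 414 to 2277 RPKM in STZ+AOS, ranges that overlapped. Alas2, the first enzyme of haem synthesis in red cell precursors, was at 2.93, 8.62 and 13.6 RPKM in STZ+AOS and 47.8, 37.1 and 44.1 RPKM in A10-FMT (adjusted p = 0.0203). Hbb-bs, an adult beta-globin gene, was at 0.23, 0.15 and 0.79 RPKM in STZ+AOS and 162, 31.2 and 531 RPKM in A10-FMT (adjusted p = 0.0391). Mouse stocks carry different forms of the beta-globin locus, the form of each mouse was not given, and the call of Hbb-bs was lost without STZ+AOS mouse 3 (adjusted p = 0.0919). The part of these cell types in the results above was not tested.

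Mice given the microbiota of control donors allow the donor treatment to be compared. These comparisons share libraries with A10-FMT against STZ+AOS, so their values are given side by side only. Con-FMT against STZ+AOS had 941 genes called (9.06%), 191 higher and 750 lower, and the count was 1 without Con-FMT mouse 2, 2 without Con-FMT mouse 3 and 169 without STZ+AOS mouse 3. A10-FMT against Con-FMT had 0 genes called by limma, also with median-ratio scaling, and 229 whose p passed before adjustment (under 0.05). For Lepr the difference from STZ+AOS was -3.77 in Con-FMT (adjusted p = 0.00456) beside -4.05 in A10-FMT, for Igfals 1.29 (adjusted p = 0.0136) beside 1.43 and for Igfbp1 -3.62 (adjusted p = 0.0166) beside -3.62.

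A p that misses the threshold does not show that the 2 transplants acted alike. The interval (95%) of A10-FMT minus Con-FMT was -1.25 to 0.68 for Lepr, -0.37 to 0.66 for Igfals, -1.57 to 1.58 for Igfbp1 and -0.08 to 1.03 for Sc5d. Cib3 and Gm41476 were the leading genes whose unadjusted interval left out 0. The leading genes were chosen by their values in the same A10-FMT mice, which favours such intervals. Cib3 also passed the limit of 1 RPKM only through A10-FMT, so the values are given as a description. Cib3 was at 0.56, 0.90 and 1.03 RPKM in Con-FMT, against 2.64, 3.52 and 1.79 RPKM in A10-FMT, and Gm41476 at 12.6, 8.31 and 11.6 RPKM against 7.13, 5.42 and 3.97 RPKM. Neither gene differed from STZ+AOS in Con-FMT by the test (adjusted p of 0.109 and 0.345), and A10-FMT minus Con-FMT was 0.98 for Cib3 and -0.87 for Gm41476 (intervals of 0.54 to 1.41 and -1.29 to -0.45, adjusted p of 0.999 for both).

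STZ+AOS against STZ also had 0 genes called by limma, as with median-ratio scaling or quantile normalization, and 638 whose p passed before adjustment. A10-FMT against STZ had 53 genes called, 18 higher and 35 lower (0.51%), where STZ mouse 3 lay far from the other STZ mice. Against Con, 4997 genes were called in STZ+AOS (48.1%) and 1796 in A10-FMT (17.3%). With median-ratio scaling these counts were 3074 and 948.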

How the data were processed

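Liver mRNA of 18 male ICR mice was sequenced. The deposited table gives RPKM per gene symbol, computed by the authors; the submitters' processing notes name Bowtie 0.12.2 and mm10, while the study's methods name SOAPaligner, and strand was not given. RPKM is not a count, so no count model was used. A symbol was kept at 1 RPKM or more in at least 3 of the 6 libraries; 237 symbols sat exactly at that limit (median 1.06 RPKM) and 254 were in exactly 2 libraries (median 0.892 RPKM). Values were analysed as log2(RPKM + 1), which understates changes of low genes, with limma 3.58.1 in R 4.3.3, fitted to all 6 groups with a mean-variance trend, and Benjamini-Hochberg adjustment over the kept genes. Errors are SE. The script was tested on simulated data.

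Genes were named by a rule: up to 10 higher and 10 lower by smallest p with at least 2-fold change and no overlap, leading members of each list, and a few fixed genes. Others, among them Bcl6, Jak2, Fdps, Thrsp, Cd36, Irs2, Cdkn1a, Saa1, the Mup genes and the members listed only by name, were chosen after their values were seen. A few genes are counted in the lists but not reported here by name. The comparison and lists were chosen with earlier results of these data known, so lists are described by counts and medians. Alternatives changed the scaling, pseudocount, filter, groups fitted, trend, replicate block and each mouse. Median-ratio scaling without STZ+AOS mouse 3, the alternatives of the other comparisons and the wider set of followed genes were added after seeing the data. Promoters were the 250 bases before RefSeq starts in GRCm38.p6; 10 motifs were searched on both strands, and 8284 kept genes had a window. Positions of genes are from GENCODE.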

Additional observations from a re-analysis of the deposited data

How the results depend on the processing

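The count of 1370 genes in A10-FMT against STZ+AOS became 848 with quantile normalization, 870 without a filter, 586 without the AOS group, 50 with only the 6 libraries, 0 with the 4 groups with STZ (limma, 2600 at an unadjusted p under 0.05), 258 with median-ratio scaling and without STZ+AOS mouse 3, 0 at an adjusted p of 0.001 and 2-fold, and 300 by fold alone with no test. Leaving out 1 mouse gave 129 to 2189. With Con-FMT in place of A10-FMT it gave 1 to 1606, and for STZ+AOS against STZ 0 to 2. Against Con, median-ratio scaling and quantile normalization gave 948 and 855 for A10-FMT and 3074 and 3142 for STZ+AOS. The cause was not tested. Of 119 genes followed through 19 alternatives, or 18 for the 15 genes under 1 RPKM in some of the 6 libraries, 90 were called. Among these 90, 0 changed sign, 0 were called under every alternative and 25 stayed called without any single mouse. Under all alternatives run for them but the 4 groups with STZ, 10 stayed called (Abcc4, Cables1, Cib3, Eif4ebp3, Igfals, Lepr, Nrep, Nudt4, Slc22a7 and Sult1e1). For Cib3, Nrep and Sult1e1 the alternative with 1 RPKM or more in each of the 6 libraries could not be run. Cib3 and Sult1e1 passed the limit only through the group in which they were higher, so their calls are no measure of robustness.

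Same-numbered mice of A10-FMT and STZ+AOS had correlated deviations of 0.147, 0.037 and 0.072, so the numbers were not taken as pairs, and A10-FMT mouse 2 correlated best with STZ+AOS mouse 3 (0.056). The replicate block gave 1133 calls, and 736 for Con-FMT against STZ+AOS.

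Another 7 genes, 0 of them called, changed sign. Gpt ran from -0.391 to 0.187 as single mice were left out, and was 0.0599 with median-ratio scaling and 0.082 with median centring. Hamp ran from -0.784 to 0.0811 as single mice were left out. Hsd11b1 ran from -0.0322 to 0.118 as single mice were left out. Slc10a1 ran from -0.131 to 0.361 as single mice were left out, and was -0.0173 with median-ratio scaling and without STZ+AOS mouse 3. Sod2 ran from -0.214 to 0.0942 as single mice were left out, and was 0.0922 with median-ratio scaling and 0.116 with median centring. Sod3 ran from -0.107 to 0.108 as single mice were left out, and was 0.119 with centring on the median, 0.0801 after quantile normalization, 0.0918 with median-ratio scaling and 0.0571 when STZ+AOS mouse 3 was also left out. Srebf2 ran from -0.00836 to 0.246 as single mice were left out. Reads per library are unknown, so no counting interval can be given for low values.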

Other observations

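Some gene groups outside the account above held few calls. Of 18 circadian clock genes, Arntl and Rora, a core activator and a nuclear receptor of the clock, were lower in A10-FMT and 0 were higher. Of 16 targets of the drug receptors CAR and PXR, Cyp2b10 was lower, and of 11 urea cycle genes, Arg1, which codes for arginase, was lower. Of 12 genes of endotoxin sensing and its feedback, Cd14, Myd88 and Nfkbia were lower and Tlr5, the flagellin receptor, was higher. Of all genes 10.7% were called lower and 2.53% higher, so the shares of the clock (11.1%), drug receptor (6.25%) and urea cycle (9.09%) lists were near or under that of all genes. The endotoxin list was above it, with 33.3% called in either direction beside 13.2% of all genes. With median-ratio scaling 1 endotoxin gene was called higher and 1 lower. Without STZ+AOS mouse 3 none of the 8 calls was kept by limma, with adjusted p of 0.0506 to 0.107. These members are named because they were called in the fit of 18 libraries, after their values were seen.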
